A study of Homo sapiens with 8 samples.

Results

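Band 19p13.3 is the outermost 6.9 Mb of the short arm of human chromosome 19. It held 484 of the 58952 regions of histone H3 lysine 4 dimethylation (H3K4me2) found in rhabdomyosarcoma cells after knockdown of the demethylase LSD1 or control transfection. Regions were formed by merging the peaks of the 4 library lists that overlapped by at least 1 bp, and a region belonged to the band when its midpoint lay there on the hg19 build. A region was called gained when both siLSD1 libraries and no siCtrl library had a peak in it, lost in the reverse case, and common when each of the 4 libraries had a peak. The band and its classes were chosen by the presence of peaks in the siLSD1 and siCtrl libraries, with the band's gained share known, so counts, covered lengths and breadths are descriptions without a test.

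RD is an established line of human rhabdomyosarcoma, a tumour with features of skeletal muscle, here used at passages p10-p15. In the siLSD1 group the cells received a Silencer Select siRNA directed at LSD1, and in the siCtrl group a control siRNA from the same supplier, with new medium at 8 h and harvest at 96 h. Each siRNA has 2 ChIP libraries, made with an antibody to H3K4me2 and described by the submitters as biological replicates, while the 4 input libraries were not analysed here. All groups are the same line, LSD1 levels were not among the data used here, and the peak lists carry no read depth.

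H3K4me2 marks the nucleosomes around active and poised gene starts and at enhancers. LSD1 demethylates mono- and dimethylated H3K4, usually within complexes that contain the corepressor CoREST, and is best known as a repressor of enhancers and promoters during differentiation. Band 19p13.3 is a gene-dense, GC-rich subtelomeric band whose genes include the kinase genes STK11 and MAP2K2, the transcription factor genes TCF3 and NFIC, the G protein gene GNA11, and the chromatin genes DOT1L, UHRF1, KDM4B and MLLT1. In the RefSeq annotation of GRCh38.p14 the band held 244 protein-coding genes, or 35.4 per Mb.

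Starts of some genes named at leading gained, widened and lost regions are shown as examples that differed in CG content, the feature of CpG-island promoters. They are a selection from the named genes, and no link between these starts and the regions was tested. Each sequence is the 250 bases before a RefSeq gene start on GRCh38.p14, written 5′ to 3′ with every CG in capitals. The sequences belong to CFD (complement factor D), to NFIC (a nuclear factor I protein), to both RefSeq starts of TJP3 (the tight junction protein ZO-3), and to KDM4B (a demethylase of H3K9).
CFD (chr19:859414-859663, plus strand): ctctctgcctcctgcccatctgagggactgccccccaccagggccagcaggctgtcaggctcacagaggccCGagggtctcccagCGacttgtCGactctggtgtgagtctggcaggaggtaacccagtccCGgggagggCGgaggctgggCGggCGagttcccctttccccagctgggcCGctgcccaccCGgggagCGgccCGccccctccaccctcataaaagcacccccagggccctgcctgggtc
NFIC (chr19:3359380-3359629, plus strand): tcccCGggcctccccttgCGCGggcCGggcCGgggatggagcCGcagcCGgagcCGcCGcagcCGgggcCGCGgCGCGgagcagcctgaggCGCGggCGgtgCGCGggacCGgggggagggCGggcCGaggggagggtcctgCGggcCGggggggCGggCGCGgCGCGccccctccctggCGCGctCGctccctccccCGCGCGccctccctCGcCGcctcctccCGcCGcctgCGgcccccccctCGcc
TJP3, upstream start (chr19:3708134-3708383, plus strand): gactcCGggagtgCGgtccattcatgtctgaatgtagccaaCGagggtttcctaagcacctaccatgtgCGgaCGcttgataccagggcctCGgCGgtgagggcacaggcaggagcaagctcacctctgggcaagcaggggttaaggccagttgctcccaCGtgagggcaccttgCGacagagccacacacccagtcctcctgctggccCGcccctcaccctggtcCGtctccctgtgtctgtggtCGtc
TJP3, downstream start (chr19:3721487-3721736, plus strand): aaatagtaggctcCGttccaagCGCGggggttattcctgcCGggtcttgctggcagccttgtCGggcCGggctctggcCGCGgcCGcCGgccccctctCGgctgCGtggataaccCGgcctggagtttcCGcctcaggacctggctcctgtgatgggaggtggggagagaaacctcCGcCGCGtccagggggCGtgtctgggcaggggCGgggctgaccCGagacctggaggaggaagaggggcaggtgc
KDM4B (chr19:4968863-4969112, plus strand): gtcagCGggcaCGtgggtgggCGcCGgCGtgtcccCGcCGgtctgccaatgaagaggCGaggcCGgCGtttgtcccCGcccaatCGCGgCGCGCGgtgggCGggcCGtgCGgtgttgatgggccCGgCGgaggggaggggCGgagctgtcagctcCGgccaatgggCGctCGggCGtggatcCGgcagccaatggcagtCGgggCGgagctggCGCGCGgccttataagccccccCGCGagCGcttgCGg
The CFD sequence held 11 CG and was 70.8% G or C, and the upstream TJP3 start held 12 CG at 62.8%. The NFIC sequence held 41 CG at 87.2%, the KDM4B sequence 36 CG at 75.6%, and the downstream TJP3 start 20 CG at 69.6%. Over the 211 promoter entries of the band the median was 24 CG and 68.0% G or C, against 15 CG and 62.4% over 1337 entries of the rest of chromosome 19. The CG motif (letters CG, which read the same on both strands) occurred at least once in 99.5% of the band's entries and in 96.8% of all 22198 entries. Coordinates of these sequences are on GRCh38.p14 and were not joined to the hg19 regions.

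More of the band lay under H3K4me2 peaks in the siLSD1 libraries than in the siCtrl libraries. Peaks covered 1233 kb and 1281 kb of the band in siLSD1 replicates 1 and 2, against 906 kb and 1032 kb in siCtrl replicates 1 and 2. Both siLSD1 values lay above both siCtrl values, and the means were 1257 ± 34.3 kb and 969 ± 88.7 kb (SD, n = 2 each), a difference of 288 kb and a ratio of 1.30. The number of peaks in the band was 485 and 475 in the siLSD1 libraries and 338 and 380 in the siCtrl libraries. The band was densely marked in either condition, with 17.9% and 18.6% of its length under peaks in siLSD1 and 13.1% and 15.0% in siCtrl, against 3.19% and 3.44% of all chromosomes analysed in siLSD1 and 2.31% and 3.10% in siCtrl.

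The lists also differed in length over all chromosomes, with 50587 and 49611 peaks in siLSD1 and 33878 and 44831 in siCtrl, the shortest being siCtrl replicate 1. The ratio of covered length, siLSD1 over siCtrl, was 1.23 over all chromosomes and 1.19 in chromosome 19 outside the band. The share of each list's peaks that fell in the band was 0.959% and 0.957% in siLSD1 and 0.998% and 0.848% in siCtrl, so that the groups overlapped. When each list was cut to its 33878 top-scoring peaks, the band's ratio was 1.21 and the ratio over all chromosomes 1.07. Without siCtrl replicate 1 the ratios were 1.22 in the band and 1.07 over all chromosomes, and without siCtrl replicate 2 they were 1.39 in the band and 1.44 over all chromosomes, so which of the ratios was higher depended on the siCtrl library kept. The part of depth and precipitation efficiency in these differences was not tested. With 2 libraries against 2, an exact two-sided permutation test cannot give a p below 0.333.

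Most regions of the band were common. There were 289 common regions, 59.7% of the band's 484 regions, beside 45.2% of regions over all chromosomes. In the rest of chromosome 19 the common share was higher, at 64.3%. Gained regions numbered 59, or 12.2% (95% Clopper-Pearson interval 9.41 to 15.4%, which covers counting error only and treats regions as independent), beside 6.97% of all regions. In the rest of chromosome 19, 151 of 1924 regions were gained, or 7.85%. A single region of the band was lost, 0.207% beside 1.04% of all regions and 0.468% in the rest of chromosome 19. Since the contrast chose the band, nothing is read from these shares.

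The remaining 135 regions (27.9%, beside 46.8% of all regions and 27.4% in the rest of chromosome 19) had another pattern of libraries. Of these, 45 had a peak in both siLSD1 libraries and in siCtrl replicate 2 only (9.30%, beside 11.5% of all regions). Another 7 had one in both siLSD1 libraries and siCtrl replicate 1 (1.45%, beside 0.848%). Peaks in siLSD1 replicate 1 alone made up 27 regions (5.58%, beside 8.06%), and in siLSD1 replicate 2 alone 30 (6.20%, beside 9.32%). Peaks in siCtrl replicate 1 alone made up 1 region (0.207%, beside 1.31%), and in siCtrl replicate 2 alone 3 (0.620%, beside 5.88%). Replicate 2 of siCtrl thus shared more of the siLSD1 regions than replicate 1 did, in the band and over all chromosomes.

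The 288 kb divided about evenly between the 3 large classes. Gained regions accounted for 101 kb (35.0%), the 289 common regions together for 97.8 kb (33.9%) and the other patterns for 91.4 kb (31.7%), while the lost region took off 2.004 kb. Gained regions covered 99.4 and 102 kb in the siLSD1 libraries and, by definition, none in the siCtrl libraries. Common regions covered 993 and 1026 kb in the siLSD1 libraries, against 883 and 940 kb in the siCtrl libraries, without overlap of the groups. The other patterns covered 141 and 153 kb in siLSD1, against 21.5 and 89.8 kb in siCtrl, where replicate 2 had far more than replicate 1.

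**Figure D1:**
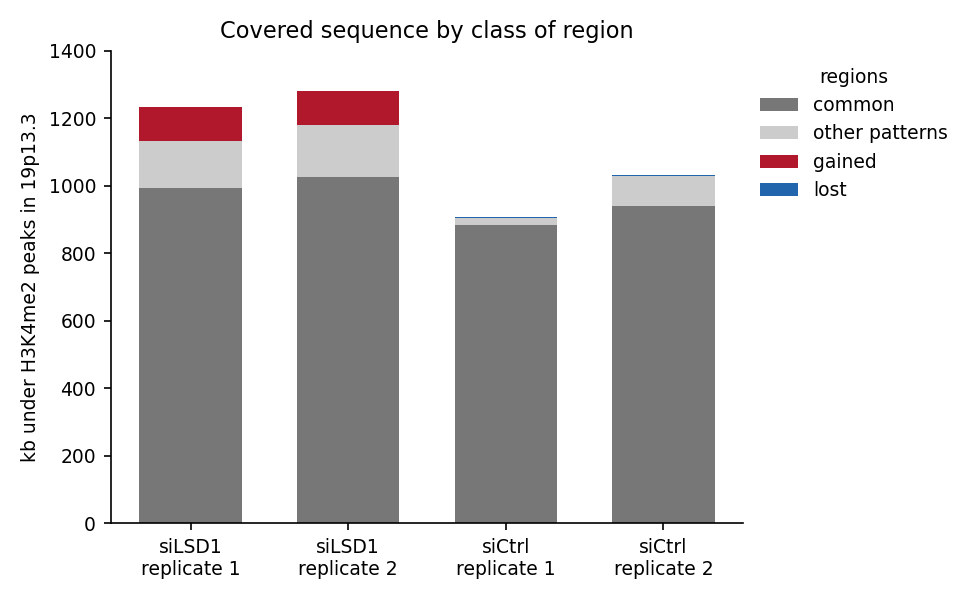
Stacked bars give the kb of band 19p13.3 under H3K4me2 peaks in each library, divided into common, other, gained and lost regions. Common regions make up most of every bar, gained regions appear as a cap of about 100 kb in both siLSD1 bars, and the lost region is too small to see.

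Along the band, the increase was spread over its whole length. In 14 of 14 bins of 500 kb (the last of 400 kb) each siLSD1 library had more sequence under peaks than either siCtrl library. Over all chromosomes this held in 41.1% of 5137 bins, and the reverse in 1.71%. With lists of equal length it held in 13 of the 14 bins and in 23.9% of 4876 bins over all chromosomes, an alternative chosen after seeing the data. The bins over all chromosomes were not matched to the band's in amount of marked sequence. No such count was made for the rest of chromosome 19 alone.

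The ratio of the means, siLSD1 over siCtrl, had a median of 1.31 over the bins and ran between 1.14 and 1.68. It was lowest in the bin from 2.5 to 3.0 Mb, with 74.7 and 74.1 kb in siLSD1 and 59.6 and 70.9 kb in siCtrl. It was highest in the last bin, from 6.5 to 6.9 Mb, with 41.2 and 43.7 kb in siLSD1 and 22.05 and 28.45 kb in siCtrl. The bin with most marked sequence, from 1.0 to 1.5 Mb, had 177 and 181 kb in siLSD1 and 147 and 163 kb in siCtrl.

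By count, gained regions were most numerous between 3.0 and 4.5 Mb. The bin from 3.0 to 3.5 Mb, which holds CELF5 and the start of NFIC, had 11 of the 59, among 44 regions of any class. Peaks in that bin covered 93.1 and 92.8 kb in siLSD1 against 51.8 and 61.4 kb in siCtrl. The bins from 3.5 to 4.0 Mb and from 4.0 to 4.5 Mb held 7 gained of 38 regions and 6 of 41. The bin from 5.5 to 6.0 Mb held 6 of 30. The sparsely marked bin from 5.0 to 5.5 Mb held 18 regions, with 5 gained, the lost one and only 6 common. The gained share of a bin's regions was highest in that bin. There peaks covered 32.3 and 31.0 kb in siLSD1 and 14.7 and 23.5 kb in siCtrl.

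**Figure D2:**
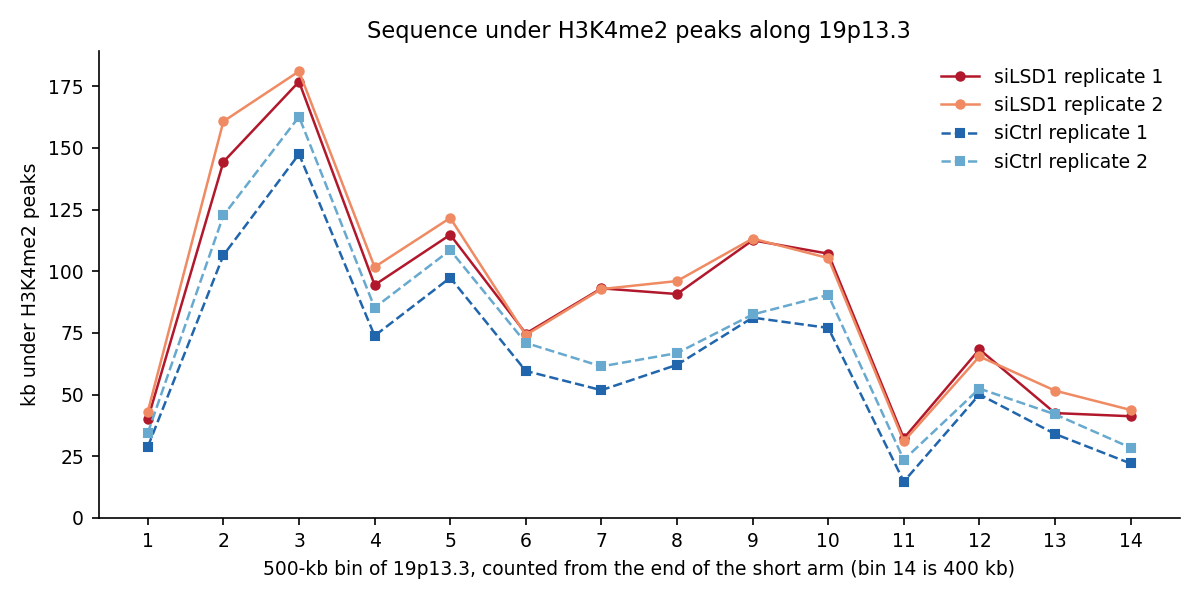
Each point is the kb under H3K4me2 peaks in a 500-kb bin of band 19p13.3 (vertical axis) for a single library, with bins numbered from the end of the short arm. Both siLSD1 lines run above both siCtrl lines in all 14 bins, and the gap between them is widest relative to the siCtrl values in bins 7, 11 and 14.

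Gained regions were shorter and weaker than common ones. Their widths ran from 1094 to 3477 bp with a median of 1730 bp, against a median of 3544 bp for the common regions of the band. These are merged widths, from 2 lists for a gained region and 4 for a common one, which by construction favours wider common regions. Outside the band the medians were 1419 bp for gained and 2783.5 bp for common regions. Peak scores are the authors' own values and are compared here only within a list. In siLSD1 replicate 1 the gained regions scored 51.17 to 415.54 with a median of 103.94, and in siLSD1 replicate 2 50.49 to 661.98 with a median of 124.95. As ranks within the lists, the median gained region stood at the 30.4th and 34.3rd percentile in siLSD1 replicates 1 and 2. Common regions of the band stood at the 86.0th and 85.9th percentile in the siLSD1 lists and at the 77.0th and 80.7th in the siCtrl lists. In the same lists gained regions stood at a median percentile of 26.5 and 31.4 in the rest of chromosome 19, and of 24.1 and 23.7 over everything outside the band.

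All 59 gained regions overlapped a peak of the authors' pooled siLSD1 list, and 7 of them also overlapped a peak of the pooled siCtrl list, which leaves 52 found with siLSD1 only. The pooled lists come from the same replicates, so this overlap is no independent support. It was not counted for gained regions outside the band. With lists of equal length 31 of 406 regions of the band were gained and 5 lost. Over all chromosomes 1376 of 41858 regions were then gained and 1433 lost, where the full lists had 4107 gained and 615 lost. Of the 59 gained regions, 15 overlapped a region that was gained in lists of equal length, among them 9 of the 12 strongest. Cutting the lists only removes peaks, so a gained region stays gained whenever its peaks in both siLSD1 lists score above the cut. The 12 were chosen by pooled siLSD1 score, so their larger share follows largely from that choice.

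The strongest gained region by a pooled peak of its own lay between CELF5, which encodes an RNA-binding protein of the CELF family, and NFIC. Genes are named here from general knowledge of the hg19 map, their order was checked in the RefSeq table, and no distance to a gene is given. The region, at chr19:3317927-3321048, was 3.10 and 3.02 kb long in siLSD1 replicates 1 and 2, with scores of 352.29 and 661.98 and a pooled score of 928.14. It was part of a run of 4 gained regions from 3313055 to 3337580, a stretch of 24.5 kb with 10.3 and 8.64 kb under peaks in siLSD1 and 0 and 1.05 kb in siCtrl. The fourth member of the run, at chr19:3335155-3337580, scored 217.81 and 150.36 in the siLSD1 libraries. A further gained region lay in CELF5 at chr19:3289806-3291336, with 1.43 and 1.48 kb under peaks in the siLSD1 libraries. Common regions bounded the run on either side. The one at chr19:3284047-3285885 had 1.45 and 1.84 kb in siLSD1 and 1.34 and 1.54 kb in siCtrl. The one at chr19:3342452-3344962 had 1.996 and 2.321 kb in siLSD1 and 2.32 and 2.22 kb in siCtrl.

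The highest pooled score, 2519.93, belonged to the gained region at ELANE and CFD, chr19:855240-858133, but the pooled peak behind it was a joined one. ELANE encodes neutrophil elastase, and CFD encodes a serine protease of the alternative complement pathway. The region was 2.81 and 2.88 kb long in the siLSD1 libraries, with scores of 190.57 and 280.56. The pooled siLSD1 peak ran from 855101 to 863232 and also covered the common region at CFD, chr19:858516-863163, which was 0.382 kb away. That common region had 4.45 and 4.54 kb under peaks in siLSD1 and 4.56 and 3.95 kb in siCtrl, so its breadth overlapped between the groups. On the other side, the common region at PRTN3 (proteinase 3) and ELANE, chr19:842712-854380, had 11.35 and 11.42 kb in siLSD1 against 4.56 and 6.74 kb in siCtrl. Peaks thus lined most of the interval between PRTN3 and CFD in the siLSD1 libraries, while in the siCtrl libraries they were broken up there.

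**Figure D3:**
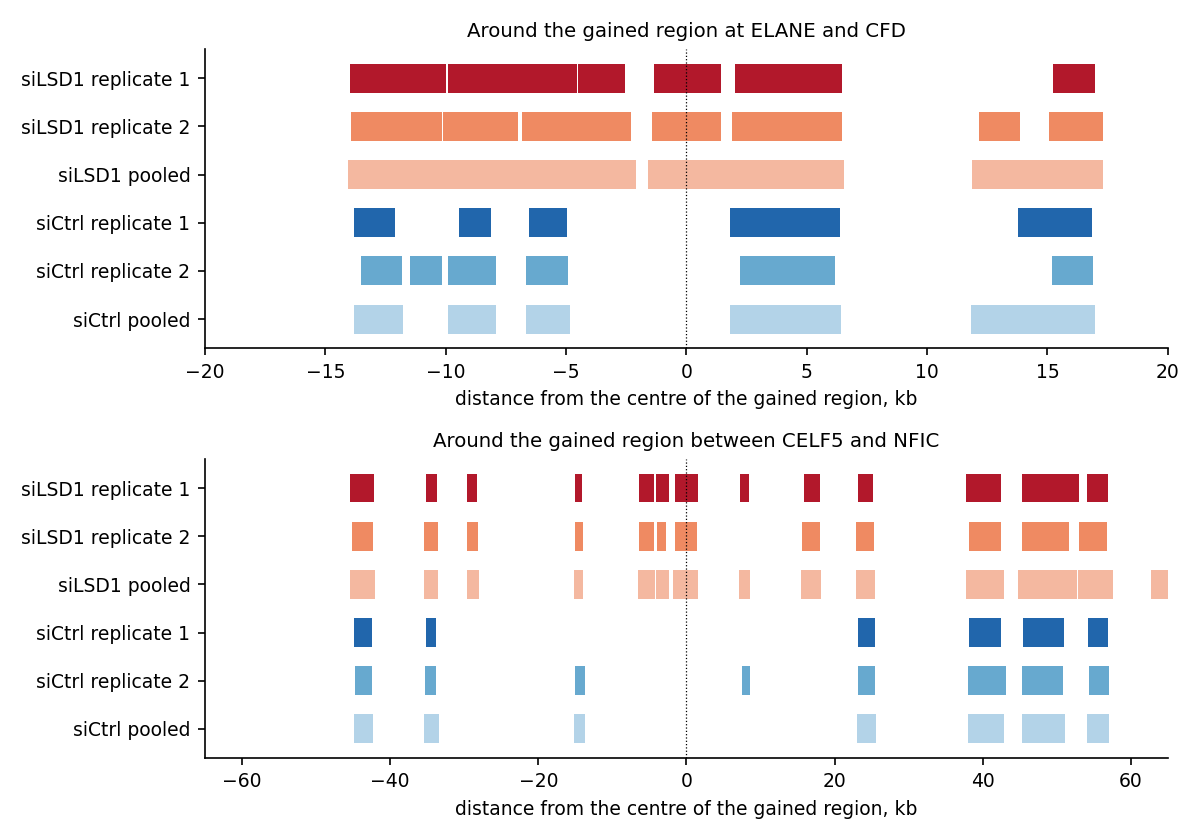
Bars are the deposited peaks of each library and of the pooled lists, placed by distance in kb from the centre of a gained region, at ELANE and CFD (upper panel) and between CELF5 and NFIC (lower panel). At distance 0 all siLSD1 rows have a peak and no siCtrl row does, and the upper panel also shows the near-continuous siLSD1 peaks left of the centre where the siCtrl peaks are shorter.

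The other gained regions among the 12 strongest lay at genes of varied function. In MATK, which encodes a tyrosine kinase of the CSK family, the region at chr19:3783577-3786177 was 2.60 and 2.38 kb long in siLSD1 with scores of 329.25 and 468.73. In ONECUT3, a homeodomain transcription factor gene, the region at chr19:1772209-1774406 was 1.843 and 2.004 kb long with scores of 241.55 and 248.57. In ANKRD24, which encodes an ankyrin repeat protein, the region at chr19:4206456-4209932 had the greatest merged width of the gained ones, with 2.27 and 3.48 kb in the siLSD1 libraries. At SLC25A41, a mitochondrial carrier gene, the region at chr19:6429243-6430526 had scores of 208.18 and 220.6.

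Several more lay at or between neighbouring genes. Between HMG20B, whose product is a subunit of LSD1-CoREST complexes, and GIPC3, which encodes a PDZ domain protein, the region at chr19:3579143-3581366 was 1.71 and 2.22 kb long in the siLSD1 libraries with scores of 218.23 and 125.57. At TLE2 and TLE5, members of the Groucho family of corepressors, the region at chr19:3039074-3040701 scored 123.89 and 227.25. Between PIP5K1C, a phosphoinositide kinase gene, and TJP3, the region at chr19:3705251-3706815 scored 91.69 and 217.11. Of the 12, the ranks within the siLSD1 lists were farthest apart at 2 regions. Between SEMA6B (a semaphorin) and TNFAIP8L1, the region at chr19:4622511-4625434 stood at percentile 77.0 in siLSD1 replicate 1 and 24.7 in siLSD1 replicate 2, with 2.92 and 1.47 kb under peaks. Between SPPL2B and TMPRSS9, which encode intramembrane and serine proteases, the region at chr19:2376137-2377725 stood at percentile 4.81 in siLSD1 replicate 1 and 60.2 in siLSD1 replicate 2. The regions at SEMA6B, SPPL2B and PIP5K1C were the 3 of the 12 that were not gained in lists of equal length. Each had a siLSD1 peak that fell below the cut by score.

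Some gained regions lay close together. Joining gained regions separated by at most 20 kb gave 13 runs that held 30 of the 59, a count that was not made elsewhere. Besides the CELF5 to NFIC run, 2 others held 3 gained regions each. The run from 4149154 to 4173869, around CREB3L3, a transcription factor gene of liver and intestine, had 5.49 and 7.38 kb under peaks in siLSD1 and 0.868 and 0 kb in siCtrl. The run from 5745660 to 5761957 had 6.27 and 5.28 kb in siLSD1 and no peak in either siCtrl library, although 2 of its 3 gained regions overlapped a peak of the pooled siCtrl list, scored 60.91 and 58.45.

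Gained regions of the band lay at a median of 8.96 kb from the nearest common region, with a range of 0.382 to 29.1 kb. Of the 59, 22 lay within 5 kb (37.3%, 95% Clopper-Pearson interval 25.04 to 50.85%), 6 within 1 kb and 14 beyond 20 kb. Outside the band the median was 15.8 kb, with 980 of 4048 gained regions (24.2%) within 5 kb, and in the rest of chromosome 19 it was 6.89 kb, with 60 of 151 (39.7%). Common regions were themselves closer together in the band. There were 41.9 of them per Mb in the band, 23.7 in the rest of chromosome 19 and 8.70 outside the band, with median gaps of 12.1, 18.3 and 34.8 kb. In lists of equal length the band's median distance was 5.61 kb, a value that was not computed elsewhere. With the full lists, the 95% interval of the band's median, taken from the ranked distances, was 4.87 to 14.3 kb. It included the 6.89 kb of the rest of chromosome 19. The part of the spacing in these distances was not tested.

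**Figure D4:**
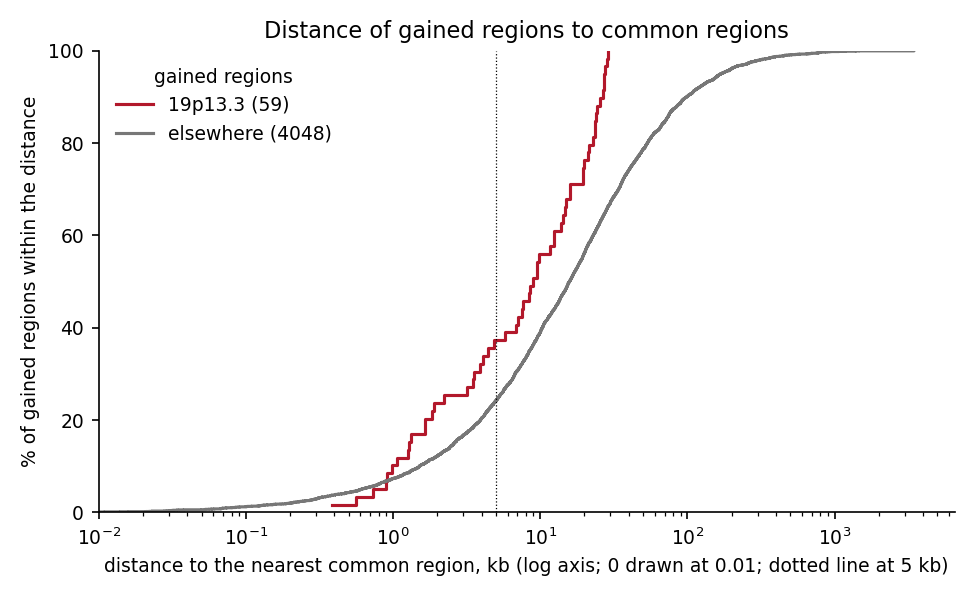
Lines give the cumulative share (%) of gained regions within a given distance in kb (log axis) of the nearest common region, for the 59 gained regions of 19p13.3 and the 4048 elsewhere. The band's line ends at 29.1 kb, with its median at 8.96 kb against 15.8 kb elsewhere.

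Common regions tended to be broader with siLSD1. Of the 289, 129 had more sequence under peaks in each siLSD1 library than in either siCtrl library (44.6%, beside 30.3% of all 26653 common regions), and 27 had less in both (9.34%, beside 9.62%). In the remaining 133 the groups overlapped. Of the 1237 common regions in the rest of chromosome 19, 34.0% were broader and 10.1% narrower in both siLSD1 libraries. A common region of the band had on average 3.44 and 3.55 kb under peaks in the siLSD1 libraries and 3.05 and 3.25 kb in the siCtrl libraries. Over all chromosomes the averages were 2.74 and 2.90 kb in siLSD1 and 2.46 and 2.79 kb in siCtrl, with overlapping groups. The median difference, siLSD1 minus siCtrl, was 0.212 kb in the band, 0.127 kb in the rest of chromosome 19 and 0.126 kb over all chromosomes. In lists of equal length 44.1% of the band's common regions were broader in both siLSD1 libraries and 30.0% of those over all chromosomes. Without siCtrl replicate 2 the shares were 65.4% in the band and 63.1% over all chromosomes, and without siCtrl replicate 1 they were 51.8% in the band and 37.8% over all chromosomes. Of the 28 common regions with a gained region within 5 kb, 18 were broader in both siLSD1 libraries (64.3%), against 111 of the other 261 (42.5%). Gained and broader regions are defined by the same contrast. This count was not made over all chromosomes, and the difference was not tested.

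The 5 largest increases in mean breadth ran between 2.60 and 5.74 kb, siLSD1 minus siCtrl. After PRTN3 and ELANE, the largest was between TCF3 and ONECUT3, chr19:1743727-1750919, with 7.07 and 7.12 kb in siLSD1 against 3.04 and 4.16 kb in siCtrl. In TJP3, chr19:3717857-3723424, it was 5.13 and 5.57 kb in siLSD1 against 1.70 and 2.14 kb in siCtrl. At the start of EBI3, which encodes a shared subunit of heterodimeric interleukins, chr19:4225914-4231603 had 4.79 and 5.06 kb in siLSD1 against 1.69 and 1.81 kb in siCtrl. Between TUBB4A (a neuronal tubulin) and TNFSF9 (a ligand of the tumour necrosis factor family), chr19:6515831-6520560 had 4.35 and 4.45 kb in siLSD1 against 1.90 and 1.69 kb in siCtrl. These 5 were chosen among the common regions whose groups did not overlap, so that their separation is no finding.

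The decreases were smaller. The region at SH3GL1 (endophilin A2) and CHAF1A (a subunit of the histone chaperone CAF-1), chr19:4396731-4405486, had 5.73 and 7.14 kb in siLSD1 against 8.51 and 7.80 kb in siCtrl. In KLF16, a zinc finger transcription factor gene, chr19:1852465-1858728 had 4.34 and 4.44 kb in siLSD1 against 6.26 and 5.38 kb in siCtrl. The next were in LMNB2 (lamin B2), in ZNF555 and between SAFB and MICOS13, with mean differences of -1.23, -1.22 and -1.18 kb, siLSD1 minus siCtrl. Whether or not their groups overlapped, 38 common regions had a mean more than 1 kb broader in siLSD1 than in siCtrl, and 7 a mean more than 1 kb narrower.

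Among the 5 common regions with most kb under peaks, averaged over the 4 libraries, the groups did not overlap in 3, that at PRTN3 and ELANE included. The first, at chr19:1235602-1257490 in the neighbourhood of STK11 (the tumour suppressor kinase LKB1) and MIDN (midnolin), had 18.9 and 21.7 kb under peaks in siLSD1 and 18.5 and 18.5 kb in siCtrl. In the RefSeq annotation 2 protein-coding genes lie between STK11 and MIDN, so the region is not placed in an intergenic gap. At the start of UHRF1, which maintains DNA methylation, chr19:4907613-4916396 had 8.22 and 8.78 kb in siLSD1 and 8.60 and 8.39 kb in siCtrl, with overlapping groups. Between SEMA6B and TNFAIP8L1, chr19:4578169-4587655 had 9.45 and 8.02 kb in siLSD1 and 7.37 and 8.74 kb in siCtrl, again with overlap. In NFIC, chr19:3364740-3376526 had 10.5 and 10.3 kb in siLSD1 against 8.39 and 8.16 kb in siCtrl, without overlap.

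**Figure D5:**
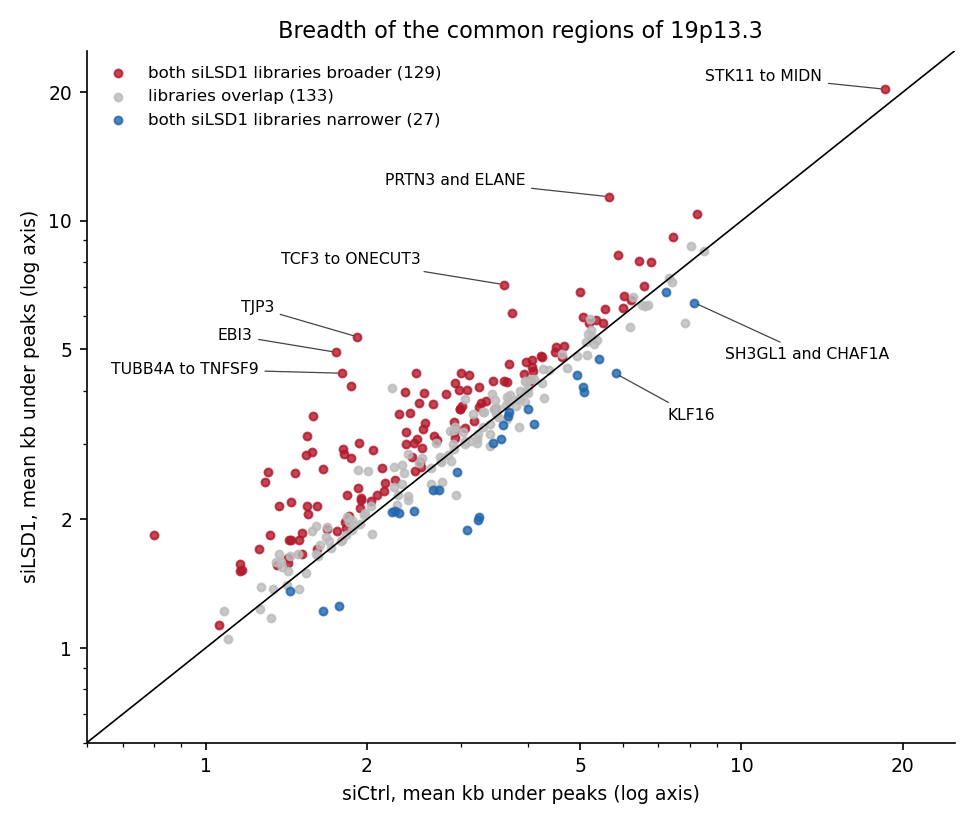
Each point is a common region of 19p13.3, with its mean kb under peaks in the siLSD1 libraries (vertical, log axis) against that in the siCtrl libraries (horizontal, log axis), and the line marks equal breadth. More points lie above the line (129 with both siLSD1 libraries broader) than below it (27 narrower), with PRTN3 and ELANE among the farthest above.

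The lost region lay within KDM4B, at chr19:5023750-5025912. It had no peak in either siLSD1 library and 2.16 and 1.84 kb in siCtrl replicates 1 and 2, with scores of 92.32 and 106.24. The pooled siCtrl list held it with a score of 184.54, but the pooled siLSD1 list also had a peak there, scored 92.7. It lay 33.6 kb from the nearest common region, farther than any gained region of the band. Elsewhere in KDM4B the pattern varied. The common region at chr19:4987628-4990183 had 2.56 and 2.33 kb in siLSD1 against 1.202 and 1.378 kb in siCtrl, and the region at chr19:5045504-5050033 had 4.34 and 4.18 kb in siLSD1 and 0 and 2.92 kb in siCtrl. At chr19:5036510-5038324 the groups overlapped, with 1.34 and 1.70 kb in siLSD1 and 0 and 1.69 kb in siCtrl.

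At the border of the band, the last region inside was a common one at chr19:6862428-6864081, with 1.65 and 1.45 kb in siLSD1 and 1.32 and 1.46 kb in siCtrl. The first region outside, at chr19:7068367-7071191, was also common, with 2.83 and 2.59 kb in siLSD1 and 2.55 and 2.78 kb in siCtrl.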

How the data were processed

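H3K4me2 ChIP-seq peaks of 4 ChIP libraries in RD cells were used, 2 per siRNA, with the authors' pooled list of each siRNA. Reads were aligned with Bowtie to hg19, per the submitters' processing notes. MACS appears in the peak names of the authors' files. The sources used here do not state its settings, any version, how the 4 input libraries were used or how replicates were pooled. The deposited values are the start and end of each peak and the authors' score, an undefined value of at least 50 that was used only to rank and describe peaks within a list. No column of other samples was present.

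Peaks on chromosomes 1 to 22 and X were merged at 1 bp overlap with Python 3.11.15, numpy 2.4.6 and pandas 2.3.3, and intervals came from scipy 1.17.1. Counting of regions and distance were checked on simulated data, while covered length was not. The named regions were the 12 gained ones with the highest pooled siLSD1 score and no pooled siCtrl peak, every lost region, and the 5 broadest, 5 most widened and 5 most narrowed common regions, the last 10 among those whose groups did not overlap. Members and lists were chosen with earlier results of these data known. Alternatives were lists of equal length, the upper 50% of each list, other merging rules, the pooled lists, and leaving out each library. Depth is unknown, and intervals cover counting error only. No annotation or sequence of hg19 was used here, and promoter sequences are RefSeq's on GRCh38.p14.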

Additional observations from a re-analysis of the deposited data

How the results depend on the processing

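Of 84 recomputed values 55 stayed within the limits set for them (1.5 times for a count) and 29 moved. A change of direction could be scored only for the difference in covered length, where 0 values changed direction. Under the other merging rules that difference equals the main value by construction. Leaving out a library could not reverse it, since both siLSD1 values lay above both siCtrl values. Only the lists of equal length and the upper 50% of each list could have done so. In lists of equal length 31 regions were gained and 5 lost (over all chromosomes 1376 gained and 1433 lost of 41858), the gained share was 7.64% in the band and 3.29% over all regions, and the difference in covered length, siLSD1 minus siCtrl, was 197 kb. In the upper 50% of each list by score 39 were gained, 2 lost and 79 common regions broader, the share over all regions was 6.33%, and the difference was 215 kb. With the pooled lists as a further condition 0 lost regions remained. The median distance was 5.61 kb in lists of equal length and 12.7 kb in the upper 50%. Without a library in turn, gained regions numbered 66 to 106, lost 1 to 4, common 294 to 336, broader 157 to 197 and narrower 42 to 86, the gained share was 13.5 to 21.7% in the band and 7.90 to 19.5% over all regions, the difference 225 to 351 kb, the median distance 6.51 to 6.9965 kb, and 14 of 14 bins kept their direction. Gained regions were most numerous without siCtrl replicate 2 (106), with 92 and 91 without siLSD1 replicates 1 and 2, broader regions without siCtrl replicate 2 (197), and narrower regions without siCtrl replicate 1 (86), with 48 and 63 without siLSD1 replicates 1 and 2. Leaving out a library relaxes a class by its construction, since fewer lists must then agree. The bins could not change there, since each siLSD1 value already lay above each siCtrl value in all 14. Those bin values are among the 55 and were fixed in advance. Nothing in the labels ties equal replicate numbers together. The replicate block, a value with no test, gives by construction the same mean difference, 288 kb, from 327 kb within replicate 1 and 250 kb within replicate 2. Read depth is unknown, so weak peaks missing from the shorter siCtrl lists and unmarked sequence cannot be told apart.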

Other observations

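The pooled siLSD1 list had a gap at the broadest marked stretch of the band. Between 1218060 and 1282518, a stretch of 64.5 kb that spans the neighbourhood of STK11, ATP5F1D and MIDN, it held no peak, although peaks covered 36.3 and 39.9 kb of the stretch in the siLSD1 libraries and 34.9 and 35.7 kb in the siCtrl libraries. The pooled siCtrl list had 5 peaks there, covering 40.2 kb. The stretch holds 4 common regions. Over all chromosomes 45 of the 26653 common regions had no peak in the pooled siLSD1 list, 4 of them in the band, and 32 had none in the pooled siCtrl list, 0 of them in the band. A comparison made from the pooled lists alone would count this stretch as covered with siCtrl only.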
